A study of Canis lupus familiaris with 62 samples.

Results

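The multi-exon genes of canine chromosome 3 are described here across 62 meningiomas. They are the genes of the counts file placed on chromosome 3 with more than 1 exon row and a span under 500 kb. This rule took 713 of the 910 genes of the chromosome and of the 30951 genes in all. It left out 3 multi-exon genes by their span, the shortest of them spanning 678564 bases, and the longest gene taken spanned 484724 bases. RNA was extracted from formalin-fixed, paraffin-embedded spontaneous meningiomas, taken as biopsies at surgery or soon after death, and sequenced as pairs of 150 nt reads, 1 library per tumour. The treatment labels gave 22 surgical dogs, 13 of them with surgery alone (Sx) and 9 with surgery and radiotherapy (SxRT), 7 dogs with steroid (6 of these labelled steroid/anti-epileptic), 3 dogs with radiotherapy alone (RT) and 3 with an anti-epileptic drug alone. The other 27 dogs were untreated (label none). All 62 tumours were fixed tissue, from 31 female and 31 male dogs, of which 7 were intact. Whether a tumour was sampled before or after its treatment is not in the labels, and 7 Sx and 7 SxRT dogs were lost to follow-up. Nor do the labels say which tumours were biopsies and which were taken after death. If dogs without surgery were all sampled after death, surgery and the source of the tissue cannot be told apart. All dogs named with the letter S, 21 in number, had surgery, and 1 surgical dog (Sx replicate 1) and every dog of the other groups was named with N, so the letter and surgery cannot be told apart. The title of the series speaks of a canine counterpart of an aggressive human meningioma class, but the labels used here give no class.

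Meningiomas arise from the meningothelial cells that line the brain. A gain or loss of a chromosome changes the copy number of all its genes at once, and the RNA level of many genes then moves with copy number while that of others is held back by regulation. DNA was not measured in these tumours, so the chromosome is described by RNA alone, and the part of copy number in any value was not tested. The file gives identifiers without gene names, so the roles of the genes cannot be stated, and genes are given by position on CanFam3.1, with an identifier for the few that the values turn on.

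Libraries held between 1967061 and 12063982 counts, with a median of 4190135. The chromosome 3 genes took between 1.28% and 3.15% of a library, and between 340 and 489 of the 713 had at least 1 count. Of the 713 genes, 68 were at 0 in every library, 474 passed the filter on low counts and 322 had a mean log2 CPM (log2 of counts scaled to library size, CPM) of at least 2 over the 62 tumours. The span of another gene, introns included, overlapped that of 166 of the 713, on the opposite strand for 126. Strand was not used in counting, so reads from a stretch that lies in exons of both genes cannot be told apart. Whether the exons of such genes overlap was not looked at. No 2 libraries held the same counts, and over 1891 pairs of libraries the smallest chi-square per gene was 11.8. Mitochondrial genes took between 3.00% and 46.7% of the counts. The first principal component of the genes of the other autosomes held 27.7% of their variance and lay at -43.1 ± 23.9 in the 22 surgical and at 14.0 ± 49.3 in the 27 untreated tumours (mean ± SD), with 21 of the 22 below the median of the untreated. Marker genes of cell types could not be looked up without names.

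The chromosome mean set a small number of tumours apart. A chromosome 3 score was taken for each tumour as the mean over 334 genes of the chromosome, 322 of them in the described set, of log2 CPM centred on the mean over tumours, less the median of the means of the autosomes. The score ran from -0.73 to 0.52 on the log2 scale. It lay below -0.3 in 8 tumours. These were untreated replicate 21 (-0.73), Sx replicate 10 (-0.72), untreated replicate 9 (-0.60), Sx replicate 9 (-0.50), untreated replicate 17 (-0.45), Sx replicate 6 (-0.41), SxRT replicate 4 (-0.36) and untreated replicate 1 (-0.33). The next tumour, Sx replicate 13, stood at -0.29, so the step at -0.3 is not a gap, and the wider step followed, to -0.16. At the upper end untreated replicate 7 stood at 0.52, and the next tumour at 0.23. In bulk tissue, fewer cells of a type and less RNA per cell cannot be told apart.

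The low tumours were found among surgical and untreated dogs, at 3 of 13 Sx, 1 of 9 SxRT and 4 of 27 untreated, and at 0 of 7 steroid, 0 of 3 RT and 0 of 3 anti-epileptic dogs. The score was lowest -0.72, median -0.05 and highest 0.10 in Sx, and lowest -0.36, median 0.06 and highest 0.16 in SxRT tumours. In steroid tumours it ran from 0.0065 over a median of 0.15 to 0.22. The 3 RT tumours stood at 0.09, 0.13 and 0.19, and the 3 anti-epileptic tumours at -0.03, 0.13 and 0.23. In untreated tumours it ran from -0.73 over a median of 0.08 to 0.52. The range of the untreated tumours thus covered that of every treated group. The sign of the Sx median depended on the score, since it was 0.02 with a median over genes, and 0.05 with genes of a mean log2 CPM of at least 4, where the untreated median was 0.05 too. Totals of the 8 low libraries, 2623994 to 5088876 counts, lay within those of the other 54, 1967061 to 12063982, and their median mitochondrial share was 7.15% against 12.8%. The part of these measures in the score was not tested.

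**Figure D1:**
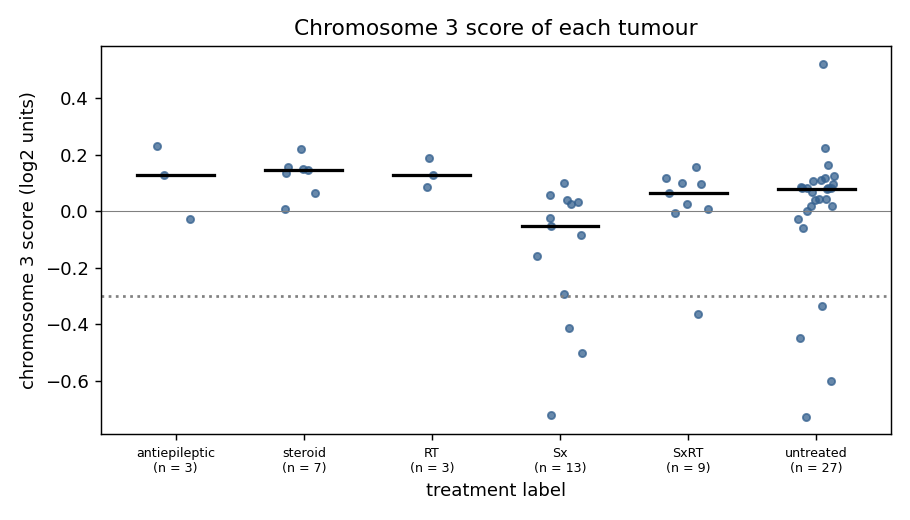
Chromosome 3 score (log2 units) of each of 62 tumours by treatment label, with a point per tumour, a bar at the group median and a dotted line at -0.3. The 8 tumours below the line are 3 Sx, 1 SxRT and 4 untreated tumours, and untreated replicate 7 stands alone at 0.52.

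In the low tumours most of the length of the chromosome was low. The 322 genes were averaged in 10 bins of 10 Mb, numbered from the start of the chromosome, each with 13 to 78 genes. The score that set these tumours apart is a mean that includes the same genes. Low bins are thus largely fixed by that choice and are a description only. In 6 of the 8 tumours all 10 bins lay below the mean over tumours. In Sx replicate 9 the bin from 40 to 50 Mb stood at 0.12, and in SxRT replicate 4 the bin from 10 to 20 Mb stood at 0.02, with the other 9 bins below 0 in both. Sx replicate 13, just above the limit, also had all 10 bins below 0. Untreated replicate 7 had all 10 bins above 0, as had Sx replicate 1, whose score was 0.10.

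**Figure D2:**
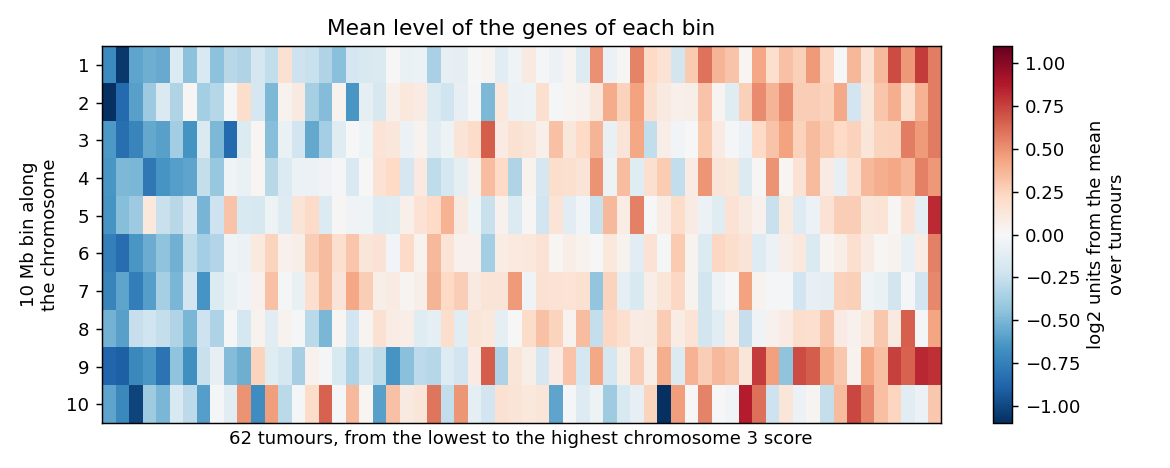
Mean level of the genes in 10 bins along chromosome 3 (log2 units from the mean over tumours, colour) in 62 tumours ordered by chromosome 3 score from left to right. The columns at the far left are below 0 in nearly every bin, while the middle columns mix bins above and below 0.

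Over all 62 tumours the bins fell into 2 loose sets. The median Pearson r over the 45 pairs of bins was 0.47, beside -0.01 over 2140 pairs of a chromosome 3 bin with a bin of another autosome. Bins 1 to 4 and bin 9 went together, with r of 0.81 between bins 1 and 9, near opposite ends of the chromosome, and of 0.77 between bins 3 and 4, and bin 8 had r of 0.57 to 0.68 with bins 1 to 4. Bins 5 to 7, from 40 to 70 Mb, went together with each other, with r of 0.55 to 0.82, and their r with bins 1 to 4, 8 and 9 ran from 0.20 (bins 1 and 7) to 0.54 (bins 2 and 5), so the sets border on each other. Without the 8 low tumours the median r over the 45 pairs was 0.15. These correlations describe the same 62 libraries and carry no test.

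The 2 sets differed in how they moved with the first principal component of the other autosomes. Its r was 0.74, 0.44, 0.54 and 0.67 with bins 1 to 4, and 0.38 and 0.67 with bins 8 and 9. With bins 5, 6 and 7 it was 0.03, 0.01 and -0.27, and with bin 10 it was -0.05. Over the 3 bins from 40 to 70 Mb together r was -0.09, and over the rest of the chromosome 0.64 (Spearman's rho -0.32 and 0.72). Spearman's rho is given because r can rest on few tumours, and neither value carries a test.

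Most genes of chromosome 3 leaned towards the chromosome mean, and 109 of them did so past the test. Each of the 322 genes was set against the mean of the genes of chromosome 3 more than 5 Mb away, so that neighbours took no part. A gene followed the mean where r was above 0 with an adjusted p under 0.05 (permutation of tumours, 100000 resamples, Benjamini-Hochberg over 11486 autosomal genes). By this 109 of 322 genes followed (33.9%), beside 630 of 11152 genes of the other autosomes set against the chromosome 3 score (5.65%). The median r was 0.26 and was above 0 in 84.8% of the 322 genes, beside -0.05 and 41.5% over the genes of the other autosomes. In the opposite direction 1 gene passed, beside 5.22% of the genes of the other autosomes. A slope of 1 is that of a gene that moves as the mean does. The 95% interval of the least squares slope held 1 in 219 of the 322 genes and lay above 1 in 26. Of the 219, 137 were among the 213 genes that did not follow, so holding 1 can also mean a wide interval. The share over the other autosomes is not given.

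The count of following genes changed with the tumours and components used. Without the 8 low tumours 62 genes followed and 38 passed in the opposite direction, with a median r of 0.08. Of the genes of the other autosomes, 10.1% and 15.2% did so. With the first principal component taken out of every gene, an alternative chosen after seeing the data, 84 genes followed and the background was 0.574%. With levels centred within treatment group 70 followed beside 1.19%.

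The following genes were spread over the chromosome. By bins from 1 to 10 they were 10 of 22, 10 of 26, 14 of 35, 16 of 33, 5 of 22, 20 of 78, 16 of 49, 8 of 26, 7 of 18 and 3 of 13 genes. The first 40 Mb held 50 of 116, the stretch from 40 to 70 Mb 41 of 149 and the stretch from 70 to 90 Mb 15 of 44. Following was more often called at high levels, with 23.1% among the 108 genes of lowest mean log2 CPM, 31.8% among the middle 107 and 46.7% among the 107 highest. Following genes also had longer spans, with a median of 62974 bases against 39543 bases in the 213 genes that did not follow, and a higher mean log2 CPM, with a median of 5.34 against 4.29. Of the 109, 37 overlapped another gene.

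The highest r belonged to ENSCAFG00000014166, of 14 exon rows on the + strand from 58302001 to 58318248. Its log2 CPM was lowest 4.14, median 5.26 and highest 6.13 in surgical tumours (n = 22), and lowest 4.77, median 5.85 and highest 6.95 in steroid tumours (n = 7). The RT tumours had 5.73, 6.29 and 6.31, the anti-epileptic tumours 5.55, 6.00 and 6.63, and the untreated tumours ran from 4.33 over a median of 5.65 to 6.65. The groups overlapped. The lowest values lay in surgical and untreated tumours, but steroid replicates 5 and 2 were low too, at 4.77 and 4.85. Over 62 tumours its r with the distant genes of the chromosome was 0.71 and rho 0.74, with an adjusted permutation p of 0.00166 for r and of 0.000175 for rho, each from the smallest p that the resamples can give. It was 0.65 without the 2 tumours farthest from the median score and 0.67 without the 8 low tumours. Its slope was 1.82, with a 95% interval of 1.36 to 2.29.

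ENSCAFG00000014682, on the - strand from 61079904 to 61330290 with 505 exon rows, was the next. It overlaps a gene on the opposite strand. Its log2 CPM ran from 7.21 over a median of 8.13 to 8.43 in surgical, from 8.01 over 8.84 to 10.0 in steroid, and from 7.30 over 8.19 to 9.21 in untreated tumours. Its r was 0.67 and rho 0.60 (adjusted permutation p of 0.00166 and 0.000175), 0.60 without the 2 farthest tumours and 0.52 without the 8 low tumours, and its slope was 1.28. Other genes with r over 0.6 lay at 55287460 to 55340571 (r 0.67), 35347064 to 35440256 (r 0.64), 30859569 to 30962337 (r 0.63), 14034925 to 14103888 (r 0.62), 83793781 to 83936032 (r 0.61), 84878693 to 84914882 (r 0.61) and 91574751 to 91630663 (r 0.61). These lie in bins 2, 4, 6, 9 and 10.

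Some followers moved far more than the mean. The gene at 55287460 to 55340571 had a slope of 6.22, and 18 of the 109 following genes had a slope above 3. Their highest mean log2 CPM was 5.34, and 15 of the 18 were also called lower in surgical than in untreated tumours, beside 35 of the 322 genes with a slope and 10.4% of all genes tested.

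**Figure D3:**
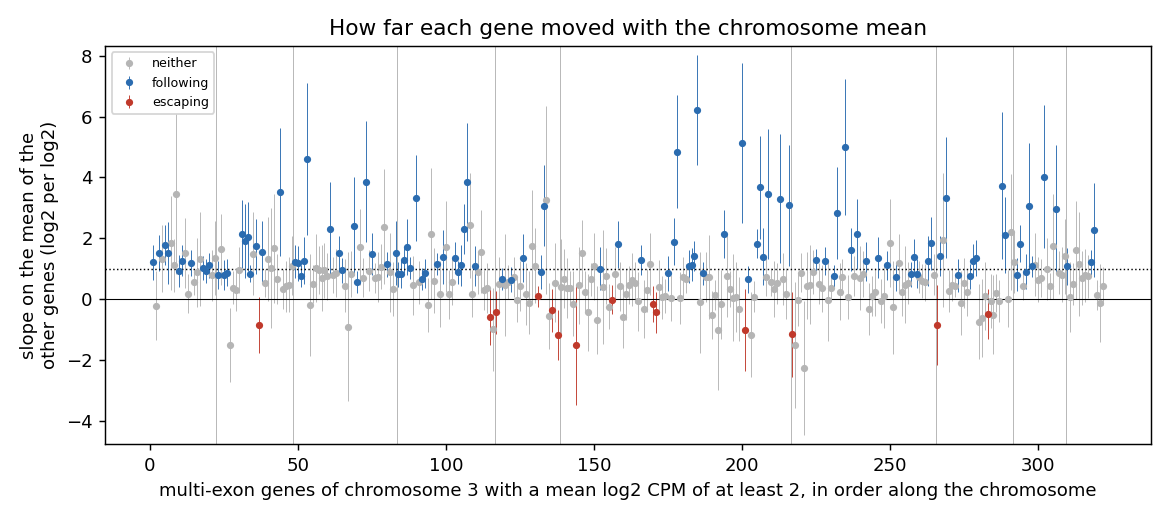
Slope of each of 322 multi-exon genes on the mean of the chromosome 3 genes more than 5 Mb away (log2 per log2, bars are 95% intervals), in order along the chromosome, with vertical lines between 10 Mb bins and a dotted line at 1. The 109 following genes (blue) are spread over all bins, and the 14 escaping genes (red) are mostly in the middle.

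A small group of well expressed genes had slopes well below 1 on the chromosome mean. A gene was called escaping where its mean log2 CPM was at least 4 and the upper 95% limit of its slope was under 0.5, a description without a test. By this rule 14 of 199 genes escaped (7.04%), beside 3778 of 7249 genes of the other autosomes (52.1%). The last gene inside the limit had an upper limit of 0.47 and the first outside 0.53. The slope was below 0 in 13 of the 14. The 14 genes were nevertheless mostly lower in the 8 low tumours than in the others, 13 of 14 with a median difference of -0.26 log2 units, beside 303 of 322 and -0.53 over all genes with a slope. The 8 tumours were chosen by a mean that includes these genes, so low values in them are partly fixed by that choice.

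Between 39844195 and 60046757 lay 11 of the 14 escaping genes. This stretch was chosen after the values were seen and its edges are those of escaping genes, so the count in it is a description only; it held 59 of the 199 genes, 15 of which followed. They were at 39844195 to 40021573 and 40004557 to 40122320, which overlap each other, at 47105046 to 47221385, 49076642 to 49308221, 49712176 to 49712967, 51969779 to 52031544, 53002598 to 53069027, 53563597 to 53649809, 53683791 to 53792186, 58103291 to 58113718 and 60013234 to 60046757. The other 3 were at 14889837 to 14890519, 70810048 to 70935860 and 73629312 to 73664182. Of the 14, 4 lay in bin 5, 5 in bin 6 and 1 in bin 7, and 1 each in bins 2 and 4 and 2 in bin 8. With the first principal component taken out 1 gene escaped, with levels centred within treatment group 2, and without the 8 low tumours 59. The share over the other autosomes was not taken in these settings, so these counts cannot be read as particular to chromosome 3.

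ENSCAFG00000011534, of 52 exon rows on the + strand from 51969779 to 52031544, had the lowest slope of the 14. Its log2 CPM ran from 0.67 over a median of 5.45 to 9.57 in surgical, from 3.23 over 5.74 to 7.96 in steroid and from 1.66 over 5.93 to 8.04 in untreated tumours. It stood at 2.81, 3.77 and 5.59 in RT and at 3.30, 6.12 and 7.90 in anti-epileptic tumours. The groups overlapped, and tumours differed by up to several log2 units within each. Its slope was -1.52, with an interval of -3.48 to 0.44, -8.15 without the 8 low tumours and 0.51 with the first principal component taken out.

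ENSCAFG00000028914, a gene of 2 exon rows from 49712176 to 49712967 on the - strand that overlaps a gene on the opposite strand, had a slope of -1.19 (interval -2.02 to -0.36). It was the 1 gene that passed in the opposite direction, with r of -0.35 (adjusted permutation p 0.0471) and rho of -0.47 (adjusted permutation p 0.00126), and r of -0.21 without the 2 farthest tumours. Over 14 alternatives its adjusted permutation p ran from 0.000996 to 0.958 and was at least 0.05 in 8, among them the other size factors and levels centred within treatment group. Its log2 CPM ran from 2.73 over 4.35 to 5.56 in surgical, from 2.68 over 3.50 to 4.33 in steroid and from 1.39 over 4.17 to 5.57 in untreated tumours. With the first principal component taken out its slope was -0.07.

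Near genes resembled each other more than distant ones. The median r over pairs of the 322 genes was 0.23 under 0.1 Mb (182 pairs), 0.15 from 0.1 to 1 Mb, 0.10 from 1 to 5 Mb and from 5 to 20 Mb, and 0.08 beyond 20 Mb (29237 pairs). Pairs with a multi-exon gene of another autosome had a median of 0.0013. The 30 pairs of overlapping genes had a median of 0.34, and these may share reads. Pairs share genes and all come from the same 62 libraries.

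Against untreated tumours, 20 chromosome 3 genes were higher and 60 were lower in the tumours of surgical dogs, of 474 tested (quasi-likelihood test of edgeR, adjusted p under 0.05). These were 16.9% of the 474, beside 16.8% of all 18370 genes tested. By direction they were 4.22% higher, beside 6.37% of all genes, and 12.7% lower, beside 10.4%. The share called was thus near that of all genes. Biopsy against tissue taken after death may differ between these groups too, and its part was not tested. The median log2 fold change was -0.11 over the 474 and -0.02 over all genes. Genes called lower moved further, with a median log2 fold change of -2.19 (range -5.08 to -0.46, 48 of 60 past 1 in size), against 0.61 for those called higher (range 0.25 to 2.81, 5 of 20 past 1). Of the 80 called genes 26 had a mean log2 CPM below 2, 25 of them lower.

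The calls differed along the chromosome. Beside the counts that follow, 6.37% of all genes tested were called higher and 10.4% lower. From 0 to 40 Mb 3 genes were higher and 30 lower of 177 tested, and from 70 to 90 Mb 0 higher and 18 lower of 69. From 40 to 70 Mb 14 were higher and 12 lower of 212, and from 90 Mb to the end 3 higher and 0 lower of 16. The median log2 fold change was -0.26, -0.23, 0.09 and 0.08 in the order of these 4 stretches. Outside 40 to 70 Mb, 181 of 262 genes had a fold change below 0, against 91 of 212 within it. With the first principal component as a covariate 1 call was left, a lower one from 0 to 40 Mb. The median log2 fold changes were then -0.09, -0.18, 0.07 and 0.20 in the same order of stretches. The stretches were chosen after their values were seen, and their difference was not tested.

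Of the 322 genes with a slope 35 were called lower and 19 higher with surgery, beside 10.4% and 6.37% of all genes tested. Of the 109 following genes 25 were called lower and 0 higher, and 84 had a fold change below 0. Of the 213 that did not follow 10 were called lower and 19 higher. Of the 14 escaping genes 4 were called higher and 0 lower, and all 14 had a fold change above 0. The same libraries gave the slopes and the fold changes, so these counts are not independent of each other. The first principal component differed between surgical and untreated tumours as given above, and its part in these calls was not tested beyond the fit with it as a covariate, in which 1 gene was called.

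**Figure D4:**
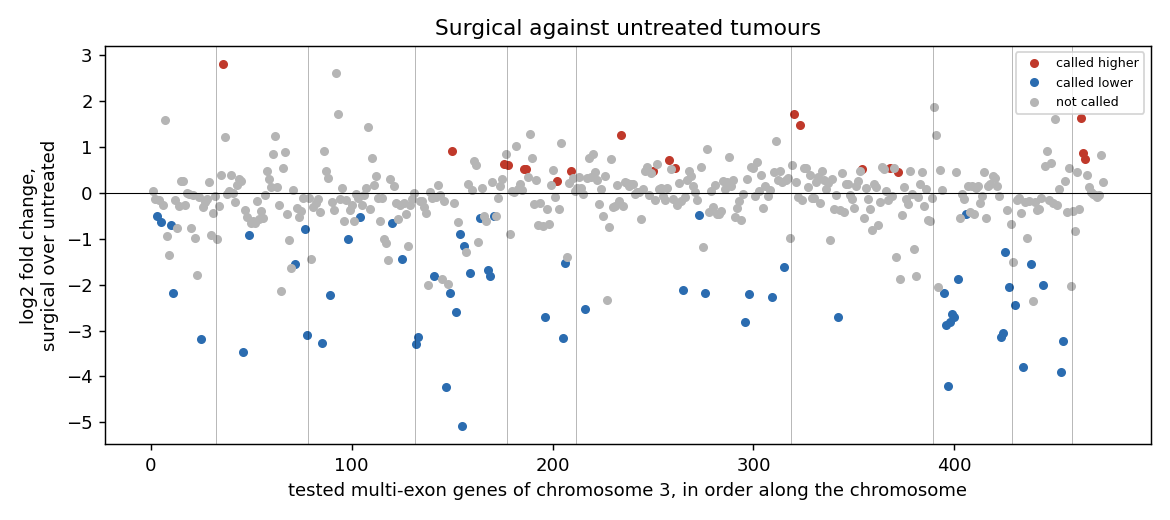
Log2 fold change of surgical over untreated tumours for each of 474 tested multi-exon genes, in order along chromosome 3, with vertical lines between 10 Mb bins. Of the called genes, 60 are lower (blue) and 20 higher (red), and 17 of the 20 higher ones are in bins 5 to 7 and 10.

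Of the 11 higher genes that met the level and median minimums for naming, ENSCAFG00000014546, from 60081087 to 60111170, had the highest fold change. Its log2 CPM was lowest 3.66, median 6.57 and highest 10.4 in surgical tumours (n = 22), against lowest 2.77, median 5.71 and highest 8.79 in untreated tumours (n = 27). The groups overlapped over most of their range. The log2 fold change was 1.72 (SE 0.486, edgeR adjusted p 0.0101), with 14 of the 22 surgical values above the median of the untreated. The neighbouring gene at 60013234 to 60046757 was among the escaping genes. With the first principal component as a covariate the fold change was 0.93 (edgeR adjusted p 0.444), with the share of even values among a library's gene counts from 1 to 20 as a covariate 1.32 (edgeR adjusted p 0.236) and with limma 1.20 (adjusted p 0.0622).

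ENSCAFG00000016699, from 91499763 to 91502650, overlaps a gene on the opposite strand. Its log2 CPM ran from 1.18 over a median of 4.35 to 5.93 in surgical, against -1.16 over 3.03 to 4.21 in untreated tumours, where -1.16 stands for a count of 0, found in 1 untreated tumour. The log2 fold change was 1.62 (SE 0.386, edgeR adjusted p 0.00262), with 17 of the 22 surgical values above the median of the untreated. With the first principal component as a covariate the fold change was 1.00 (edgeR adjusted p 0.236), and with the share of even counts 1.47 (edgeR adjusted p 0.0557). The 2 genes after it, at 91522035 to 91534593 and 91544219 to 91554565, were also called higher, by 0.86 and 0.75 (edgeR adjusted p 0.00342 and 0.00727). The spans of the 3 do not overlap each other, but each overlaps the span of another gene, so reads shared with that gene may enter its counts. These were the 3 genes called higher after 90 Mb.

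ENSCAFG00000010035, from 33664169 to 33744328, had a log2 fold change of -4.23 (SE 0.830, edgeR adjusted p 0.000407). Surgical tumours had counts of 0 to 39 with a median of 1, and 10 of 22 were at 0, while untreated tumours had 0 to 414 with a median of 8, and 5 of 27 were at 0. Its log2 CPM ran from -1.16 over -0.67 to 2.50 in surgical against -1.16 over 1.22 to 6.82 in untreated tumours, and 1 of the 22 surgical values exceeded the median of the untreated. The steroid tumours reached from 0.24 over 4.76 to 6.12. With the first principal component as a covariate the fold change was -0.94 (edgeR adjusted p 0.488), and with limma -2.60 (adjusted p 0.0176).

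ENSCAFG00000007882, from 13233594 to 13274094, had a log2 fold change of -3.47 (SE 0.740, edgeR adjusted p 0.00102). Counts were 0 to 12 with a median of 2 in surgical tumours, 5 of 22 at 0, against 0 to 235 with a median of 5 in untreated tumours, 8 of 27 at 0. The groups overlapped at the low end, and 6 of the 22 surgical values exceeded the median of the untreated. The fold change was -0.94 with the first principal component as a covariate (edgeR adjusted p 0.531), -2.87 with the share of even counts (edgeR adjusted p 0.0628) and -1.39 with limma (adjusted p 0.288).

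**Figure D5:**
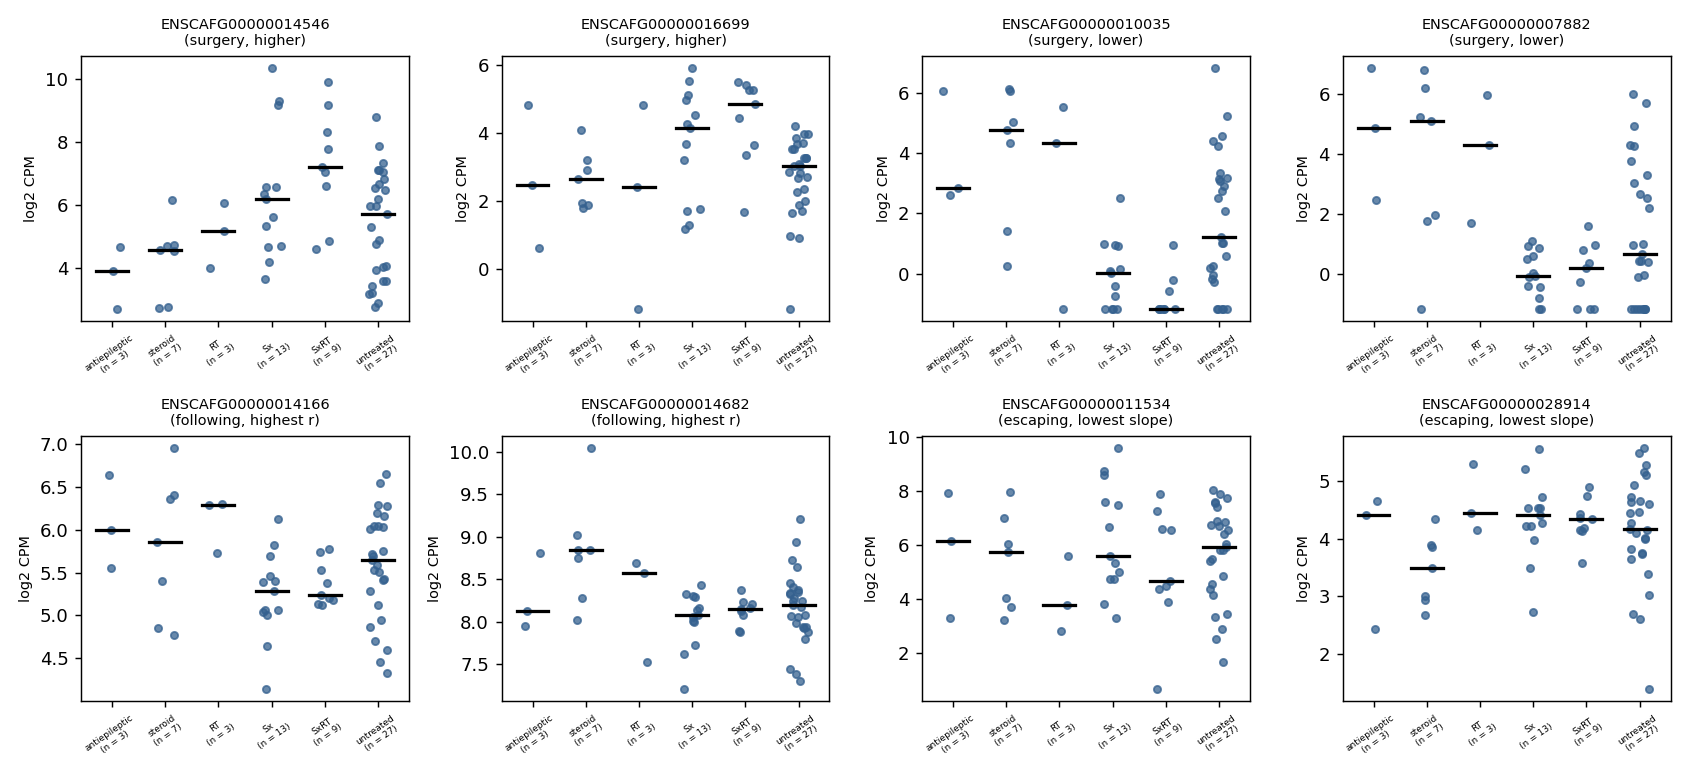
Log2 CPM of 8 genes of chromosome 3 in 62 tumours by treatment label, with a point per tumour and a bar at the group median, where -1.16 is a count of 0. The genes called lower with surgery are near 0 counts in most Sx and SxRT tumours and spread widely in the other groups, and all groups overlap for the following and escaping genes.

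One stretch held many of the lower calls. From 71 to 72 Mb 7 of 9 tested genes were called lower, beside 10.4% of all genes tested. The stretch was chosen after its values were seen. The 7 genes had fold changes from -4.22 to -1.87. They were at 71010299 to 71082216, 71146887 to 71176039, 71176060 to 71197029, 71204244 to 71344881, 71250353 to 71251905, 71370822 to 71411350 and 71833198 to 71891453, and 4 of the 7 overlap another gene. Among the 9 tested genes, 3 averaged 2 log2 CPM or more and 1 averaged 4 or more, so most were at low levels. The mean of the 9 genes correlated with the first principal component with r of 0.90 over 62 tumours. With that component as a covariate 0 of the 9 were called, with the share of even counts as a covariate 1, with limma 4 and with DESeq2 7.

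The number of surgical calls changed with the libraries and terms in the fit. Within dogs named with numbers 11 to 16 (9 surgical, 18 untreated) 0 genes of the chromosome were called, and within numbers 17 to 22 (13 surgical, 9 untreated) 2. These fits hold fewer dogs, and folds of some named genes stayed about as large without a call, at -4.43 and -3.13 for ENSCAFG00000010035 and -2.43 and -3.58 for ENSCAFG00000007882 (edgeR adjusted p 0.335, 0.0763, 0.451 and 0.0718). For ENSCAFG00000016699 they were 0.77 and 1.92, and for ENSCAFG00000014546 0.32 and 0.74, in the same order. Of the gene counts from 1 to 20 in a library, even ones, which arise where both reads of a pair are counted, made up 86.5% ± 3.46 in the 22 surgical and 91.2% ± 2.71 in the 27 untreated tumours (mean ± SD), and with this share as a covariate 4 were higher and 12 lower. Limma called 30 higher and 42 lower, DESeq2 21 and 73. Without the 8 low tumours 20 were higher and 63 lower. The share of calls over all genes is given for the main fit only. These counts thus cannot show whether a change is particular to chromosome 3.

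The other treatments gave few calls on chromosome 3. The comparisons with untreated tumours share the 27 untreated libraries. Steroid-treated dogs carried 1 gene at a higher and 0 at lower levels of 474 (0.211%), beside 0.256% of all genes. It was ENSCAFG00000015706, from 70354090 to 70359128, named after its values were seen because it fell outside the rule for named genes. Its counts were 0 in 4 of 7 steroid tumours and reached 164, against 0 in 23 of 27 untreated tumours, which reached 10. The fitted log2 fold change was 5.26 (SE 1.19, edgeR adjusted p 0.0321) and rests on steroid replicates 5 and 7, with log2 CPM of 4.64 and 2.76. Without either of them 0 genes were called, and without replicate 2 or 6 there were 4. Outside the steroid group, Sx replicate 12 stood at 3.54, above steroid replicate 7. Without the 8 low tumours the fold change was 5.50 with an adjusted p of 0.0571 (edgeR). Mitochondrial genes took 46.7% of the counts of steroid replicate 5, the highest share of all libraries. With this share as a covariate the fold change was 2.93 (edgeR adjusted p 0.692), and with limma 1.72 (adjusted p 0.186).

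Radiotherapy alone gave 1 gene higher and 0 lower of 474 (0.211%), beside 0.435% of all genes in either direction and 0.425% higher. ENSCAFG00000044340, from 43534309 to 43572352, also named after its values were seen, had log2 CPM of -0.13, 2.21 and -1.16 in the 3 RT tumours, the last a count of 0, with 12 as the highest count. Steroid replicates 4 and 7, at 3.20 and 3.07, stood above all 3 RT tumours, and 4 of the 7 steroid tumours were at 0. It was at 0 in 23 of 27 untreated tumours, which reached 6 counts. The fitted fold change was 6.07 (SE 1.05, edgeR adjusted p 0.000352). Without RT replicate 2 it was 3.48 (edgeR adjusted p 0.365) and 0 genes were called, as with DESeq2. With treatment as the only term, leaving out sex and neuter status, the fold change was 3.32 (edgeR adjusted p 0.453). With limma it was 2.47 (adjusted p 0.239).

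No gene of chromosome 3 was called between SxRT and Sx tumours (edgeR, 27 of 474 at an unadjusted p under 0.05, DESeq2 1 and limma 1), beside 0.0109% of all genes. The fold changes leaned upward, with 34.2% of the 474 below 0 against 54.5% of all genes, and a median of 0.12 against -0.04. Sx held 3 and SxRT 1 of the low tumours. Without the 8 low tumours the median was 0.06 with 42.1% below 0, and with the chromosome 3 score as a covariate it was -0.04 with 55.9% below 0. The score is built from genes of this set, so as a covariate it takes out their shared shift by construction. The low tumours were chosen by the same score. Neither fit can tell where the lean comes from, and the lean carries no test of its own.

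Against untreated tumours, the 3 tumours of dogs with an anti-epileptic drug alone gave 0 calls (edgeR, 21 of 474 at an unadjusted p under 0.05, DESeq2 0 and limma 0), beside 0.00544% of all genes. The median log2 fold change was -0.01 over the 474 genes, with 50.8% below 0, beside -0.05 and 53.9% over all genes. For RT the median was 0.0044 with 49.8% below 0, and for steroid 0.10 with 43.5% below 0, beside 0.03 and 47.6% over all genes. The differences between the treatments in these medians were not tested.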

How the data were processed

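Total RNA of 62 canine meningiomas was measured, and the authors deposited unnormalized gene counts. Exons of Ensembl release 100 on CanFam3.1 were counted by the authors in featureCounts 2.0.4, per the file headers, from primary alignments and without strand. Both reads of a pair add to a count, so counts overstate the number of fragments and the precision. STAR and DESeq2 also appear in the submitters' processing notes, with versions not given in the sources used here. How reads shared between near-identical genes were counted is not given, which leaves such genes uncertain. The name table at hand, of another assembly, matched 0 identifiers, so no gene names, marker lists or sequences were used. The file has 0 columns of other series.

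The treatment label set the groups, with Sx taken as surgery and RT as radiotherapy. Replicate numbers follow accession order only, and each replicate is a tumour of a different dog by its name. Genes were tested with edgeR 4.0.16 in R 4.3.3 (filterByExpr, TMM factors from 0.556 to 1.24, quasi-likelihood test, 6 treatment groups with sex and neuter status, all 62 libraries, Benjamini-Hochberg over 18370 genes). Surgery is the mean of Sx and SxRT. Log2 CPM used a prior count of 2. The score, following and escaping used autosomal genes that averaged at least 2 log2 CPM, and Python 3.11.15 with numpy 2.4.6. The rule for named genes took the 2 largest fold changes per direction among called genes that averaged at least 1 log2 CPM and whose group medians differed by at least 0.5, the 2 highest r and the 2 lowest slopes. Alternatives, among them limma 3.58.1 (weighted voom) and DESeq2 1.42.0, used 10000 resamples where tracking was repeated. Scripts were tested on simulated data. The genes, lists and rules were chosen with earlier results of these data known.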

Additional observations from a re-analysis of the deposited data

Results flagged for a closer look

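In the 9 SxRT tumours the chromosome 3 score of replicate 4, at -0.36, stood far from the others, the nearest of which was at -0.0061. The gap was 0.687 of the group's range. For ENSCAFG00000010035, SxRT replicate 5 had a log2 CPM of 0.95, with the nearest tumour at -0.20 (a gap of 0.545 of the range). For ENSCAFG00000015706, SxRT replicate 3 had a log2 CPM of 0.98, while the other tumours were at a count of 0. The limit for 9 tumours is 0.493, and 22 groups of values were looked at. For values that follow a normal distribution, chance puts about 1 group in 20 past it. Of the 9 SxRT tumours 6 were at a count of 0 for ENSCAFG00000010035 and 8 for ENSCAFG00000015706, so that rate does not hold for these genes.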

How the results depend on the processing

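The surgical comparison called 63 to 106 genes in 9 of 13 alternatives, 16 with the share of even counts as a covariate, 1 with the first principal component, 0 within names numbered 11 to 16 and 2 within names numbered 17 to 22. Smaller samples within names test fewer dogs, and for the others the cause was not tested. Shares of calls over all genes are given for the main fit only, in this and the other comparisons. The steroid comparison called 0 genes with the score, the first principal component or the mitochondrial share as a covariate, with only the groups compared and without the 8 low tumours, 2 with DESeq2 or no filter, 3 with treatment as the only term, 13 with limma and 0 to 4 with 1 steroid tumour left out. RT called 0 with DESeq2, only the groups compared or treatment as the only term, 2 with no filter, 14 with limma and 0 to 1 with 1 tumour left out. SxRT against Sx called 1 with DESeq2 and 1 with limma and 0 in its other 18 alternatives, and the anti-epileptic comparison 0 in all 14. Following counts were 62 of 322 without the low tumours, beside 10.1% of the genes of the other autosomes, and 70 of 322 centred within groups, beside 1.19%. At a minimum mean log2 CPM of 4 they were 72 of 199, beside 0.497%. In 11 others they were 73 to 121 of 312 to 357 genes, beside 0.574% to 14.3%. Escaping counts were 1 at the minimum of 4, 8 with the gene alone left out of the mean and 37 with genes within 20 Mb left out. They were 59 without the low tumours and 2 centred within groups. With mitochondrial share and depth taken out they were 5, and with the first principal component taken out 1. Escape thus rests on the processing, and the share over the other autosomes was not taken in these alternatives. The steroid median score was 0.047 at the minimum of 4, and the median r between bins 0.15 without the low tumours. Alternatives with the first principal component or the even share were chosen after seeing the data, as were treatment comparisons without the low tumours. No fold change of a named called gene changed sign. The slope of the escaping gene ENSCAFG00000011534 did, from -1.52 to 0.51 with the first principal component taken out. The Sx median score also did, from -0.05 to 0.02 with a median over genes and 0.05 at the minimum of 4. No paired analysis was possible because each library is a tumour of a different dog by its name. Depth limits the low genes, where 1 fragment gives about 2 counts, and p-values measure the spread between tumours.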

Other observations

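Neuter status moved with the chromosome 3 score. Of the 7 intact dogs (2 Sx, 2 SxRT and 3 untreated) 4 had a score below -0.3, against 4 of 55 neutered dogs. The score ran from -0.60 over a median of -0.33 to 0.16 in intact dogs, against -0.73 over a median of 0.08 to 0.52 in neutered dogs. The pattern was seen in the data and carries no test.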
